A study of Mus musculus with 14 samples.

Results

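AGO2 occupancy of mRNA 3′ UTRs was compared gene by gene between the knockout (KO) and the wild type (WT) libraries of an AGO2 PAR-CLIP experiment in mouse macrophages. In PAR-CLIP, cells take up 4-thiouridine, AGO2 is crosslinked to the RNA it holds and precipitated, and a crosslinked uridine is read as a C. A binding group is a cluster of overlapping reads, and a group with at least 1 such T-to-C conversion event is called converted here. For each gene the reads of its converted 3′ UTR groups were summed and scaled to the library's total of such reads. Of 6409 genes with any such read, the 2731 with 100 or more over both libraries were compared. They held 96.1% of these reads in KO and 95.3% in WT. Just inside this threshold, with 100 reads, Mtmr2 had a log2 ratio of 1.20 and Cul4b one of -2.63, and just outside, with 99 reads, Mogs had 1.52 and Pgd -2.36.

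KO cells carried the genotype ELAVL1f/f, LysM-Cre, and WT cells carried ELAVL1f/f without Cre, so both carry the floxed Elavl1 allele. LysM-Cre is expressed from the lysozyme gene Lyz2 in myeloid cells. All libraries came from bone marrow derived macrophages of C57BL/6 mice, grown with 20% L929 cell medium for 6 days per the labels, although the series text gives another length for the mRNA cultures. There was 1 PAR-CLIP library per genotype, made with the WAKO 2D4 antibody to mouse Ago2, so no difference in AGO2 occupancy has a replicate check. The study also made 4 mRNA libraries per genotype, whose KO to WT change is set beside the AGO2 ratio. Small RNA libraries of KO 3, KO 4, WT 1 and WT 2 gave the miRNA shares. The labels do not say whether libraries came from separate animals.

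AGO2 is the Argonaute protein that carries a miRNA and is guided by it to mRNAs, mostly through pairing of the miRNA's seed, bases 2 to 8, with the 3′ UTR. Recruited TNRC6 proteins and deadenylases then repress and destabilise the mRNA. ELAVL1 (HuR) binds uridine-rich and AU-rich stretches of 3′ UTRs and is known to stabilise many of its mRNAs. It has been reported both to compete with miRNAs at nearby sites and, for some mRNAs, to favour their binding. In macrophages, AU-rich mRNAs include those of cytokines and early response genes.

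AGO2 sites are shown here for the genes with most reads and for Zfp36 and Ccnd3, described further on. The miRNAs whose seeds are matched in them, and miR-21a, whose hairpin took many of the reads, are given 5′ to 3′ from RefSeq (GRCm38.p6), with the seed in capitals.
miR-27b-3p: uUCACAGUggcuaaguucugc
miR-29a-3p: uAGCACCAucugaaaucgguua
miR-24-3p: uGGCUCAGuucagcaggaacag
miR-23a-3p: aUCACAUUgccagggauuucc
miR-103-3p: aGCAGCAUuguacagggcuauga
miR-21a-5p: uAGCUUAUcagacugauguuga

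The windows below come from the deposited group sequences on the strand of the transcript, with the bases that match the named seed in capitals. The Tnpo1 window also holds a miR-23a match, which starts at the last base of the miR-27b match and is not marked. A match is a run of letters and not a proven site. Spred1 and Cdkn1b, also among the genes with most reads, have no window here, since their largest regions held no match to the 12 families searched. Coordinates are on mm9 as the tables give them, and whether their count starts at 0 or 1 could not be settled.
Fos, miR-29a match, chr12:86817782-86817811, plus strand: ttggaattaaccTGGTGCTggattgtatct
Ell2, miR-27b match, chr13:75909527-75909556, plus strand: taaccataacatACTGTGActcatcaaata
Psap, miR-24 match, chr10:59764731-59764760, plus strand: caggagcattttCTGAGCCctttcttggtg
Tnpo1, miR-27b match, chr13:99612958-99612987, minus strand: attttcttacatACTGTGAatgtgaagacc
Itsn2, miR-27b match, chr12:4720579-4720608, plus strand: tactttaaatatACTGTGAactctaataat
Rbm47, miR-23a match, chr5:66407972-66408001, minus strand: tttataacttgaAATGTGAacttttttttt
Scd2, miR-27b match, chr19:44380923-44380952, plus strand: tcgcctaacaatACTGTGActcagtattct
Zfp36, miR-27b match, chr7:29162152-29162181, minus strand: gaatcttaagtgCTGTGAAgagccggctcc
Ccnd3, miR-103 match, chr17:47736597-47736625, plus strand: cccatttctatcATGCTGCcttaataaag

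The region around the Fos match held 24905 reads in KO and 30011 in WT, and the one in Psap held 18481 in KO and 25267 in WT. The 4 regions with a miR-27b match in Ell2, Tnpo1, Itsn2 and Scd2 all had a smaller share of reads in KO. Their log2 ratios of KO over WT were -0.47 to -0.75, where the median of all compared genes was -0.26. The 514 genes with any miR-27b match had a median of -0.27. Ell2's region held 20454 reads in KO and 34669 in WT, and that of Itsn2 held 8691 in KO and 17284 in WT. The region of Zfp36 with a miR-27b match had the larger share in KO, with 2178 reads in KO and 1606 in WT. That of Ccnd3 held 21 reads in KO and 185 in WT.

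The depth behind these values is 1449651 converted 3′ UTR reads in KO and 1719975 in WT, from 14217 groups of 4991 genes in KO and 19202 groups of 5657 genes in WT. These reads were 22.5% of all reads in KO groups and 27.4% of those in WT groups. Conversion pooled over all these reads also differed, while that of the median gene within 2-fold, given below, was similar in both libraries. Converted 3′ UTR groups had 0.673 conversion events per read in KO and 0.812 in WT. These values include the region of the miR-21a hairpin, described below. It held 10109 events in 365850 KO reads and 10273 events in 195933 WT reads. Among genes within 2-fold, the median gene had 0.939 events per read in KO and 0.934 in WT. Over all annotation classes 60.0% of KO groups and 41.1% of WT groups were unconverted. Of the 3′ UTR groups, 81.6% in KO and 86.9% in WT were converted. Groups have at least 5 reads, so a gene with no listed group is not shown to have no reads. The part of these library differences in the gene ratios was not tested. Among marker lists, neutrophil, B cell, T or NK cell, erythroid and dendritic cell genes had 0 converted 3′ UTR reads in either library. Fibroblast or stromal markers had 114 reads in KO and 24 in WT, and mast cell or basophil markers had 45 and 59. Endothelial markers had 38 and 56, and osteoclast markers 113 and 128. A list without such reads is not shown to be absent from the cultures. In the mRNA libraries neutrophil markers summed to 27.6 to 80.0 CPM in KO and 12.5 to 52.2 CPM in WT. T or NK cell markers summed to 30.45 to 107.5 CPM in KO and 30.99 to 102.7 CPM in WT. Sums were larger for fibroblast or stromal markers, at 194.3 to 413.3 CPM in KO and 185 to 331.3 CPM in WT. Osteoclast markers had 193 to 350.6 CPM in KO and 183.5 to 312 CPM in WT, and endothelial markers 78.98 to 172.6 and 67.59 to 144.1 CPM. The macrophage list had 6318 reads in KO and 12386 in WT, most of them from Lyz2, described below.

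The gene with most reads was not an mRNA target. Vmp1, a membrane protein gene of autophagy, had 365855 reads in KO and 195964 in WT, but 365850 and 195933 of these lay on the hairpin of miR-21a, whose locus overlaps the Vmp1 transcript (chr11:86397583-86397644, minus strand). These groups took 25.2% of the KO total and 11.4% of the WT total. The KO group had 0.0276 conversion events per read, and the WT group over miR-21a-5p had 0.0499. Without them Vmp1 was left with 5 reads in KO and 31 in WT. The same held for Dvl2, a Wnt signalling gene, where 8317 of 8363 reads in KO and 4684 of 4739 in WT lay on miR-324. In the small RNA libraries miR-21a-5p made up 50.5% and 45.6% of miRNA reads in KO 3 and KO 4, and 46.7% and 45.6% in WT 1 and WT 2. The table of KO 4 names KO 2 over its column of shares and was taken as its sample record labels it, and genotype and number cannot be told apart in these 4 libraries. The larger share in the KO AGO2 library lowers the scaled share of every other gene in KO.

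The median gene therefore had a log2 ratio of KO over WT of -0.26, and -0.01 once groups holding a mature miRNA were left out. On the scale of all converted 3′ UTR reads, 189 genes were more than 2-fold higher in KO, which is 6.92% of the 2731, and 489 (17.9%) were more than 2-fold lower. Centred on the median gene, 285 genes (10.4%) were higher and 335 (12.3%) lower, so higher genes made up 46.0% of the genes past 2-fold in place of 27.9%. The other 2053 genes stayed within 2-fold on the first scale. Ratios below are on the first scale, where -0.26 is the middle of all genes, with 95% exact Clopper-Pearson intervals that cover counting error only. The intervals treat reads as independent counts, although reads carry no molecular identifiers. On the first scale, counting intervals lay beyond 2-fold for 93 higher and 263 lower genes of the 2731. This count is not given for the centred scale, so its balance of higher and lower genes carries the shift of the median gene.

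**Figure D1:**
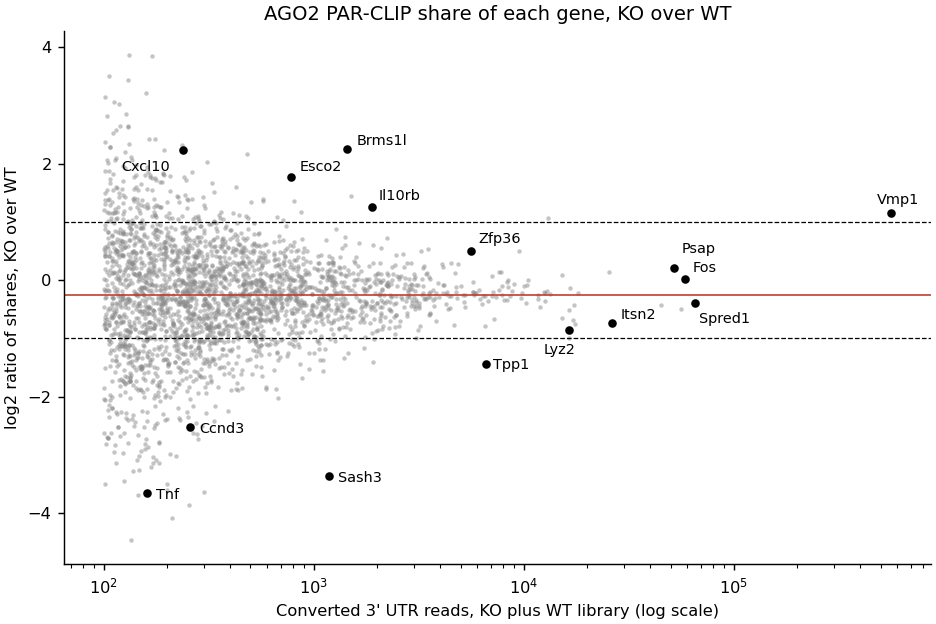
Each point is a gene with converted 3′ UTR groups in both libraries. The x axis is its reads over both libraries (log scale) and the y axis its log2 ratio of shares, KO over WT. Dashed lines mark 2-fold, the red line the median gene at -0.26, and the points spread most widely at low read numbers.

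The spread between genes was wider than counting error at every depth. Among the 891 genes with 100 to 199 reads the log2 ratios had an SD of 1.25 against a median counting error of 0.26, and 42.2% of genes passed 2-fold. Among the 236 genes with 1000 to 1999 reads the SD was 0.53 against 0.08, and 8.05% passed. Of the 164 genes with 2000 to 4999 reads 0 passed, with an SD of 0.32 against 0.06. Of the 72 genes with 5000 or more 3 passed, namely Vmp1 and Dvl2, which are the miRNA hosts, and Tpp1. Regions of the same 3′ UTR varied as well: over 1817 regions in 632 genes the log2 ratio had an SD of 1.01 within a gene, against a counting error of 0.20, and of 0.65 between the means of genes. With 1 library per genotype, spread between libraries and an effect of genotype cannot be told apart.

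**Figure D2:**
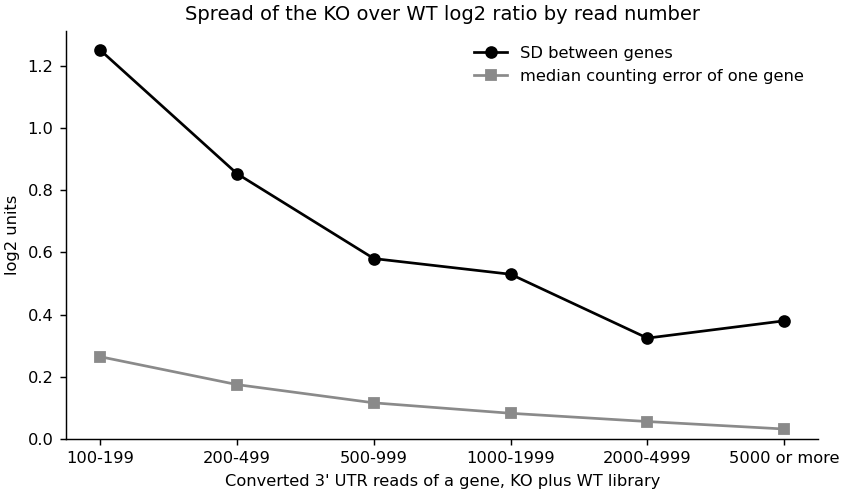
The x axis groups genes by their converted 3′ UTR reads over both libraries. Black circles give the SD of the KO over WT log2 ratio between genes and grey squares the median counting error of a gene, both in log2 units, and the black line lies above the grey line in all 6 classes.

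The mRNAs with most AGO2 reads stayed within 2-fold between the libraries, with log2 ratios from -0.75 for Scd2 to 0.22 for Psap. Reads are summed per gene and not divided by length, so their order is not an order of occupancy per base. Spred1, an inhibitor of Ras-MAPK signalling, had 25562 reads in KO and 39907 in WT, a log2 ratio of -0.40 (interval -0.42 to -0.37). Fos, a subunit of the AP-1 transcription factor, had 26923 and 31686 (0.01). Ell2, an RNA polymerase II elongation factor, had 20997 reads in KO and 35304 in WT (-0.50). These genes lay well within 2-fold of the median gene, as did Tnpo1, a nuclear import receptor, at -0.43 and Cdkn1b, the cell cycle inhibitor p27, at -0.22. Rbm47, an RNA-binding protein, had 12208 reads in KO and 13137 in WT (0.14). Psap, the precursor of the lysosomal saposins, had 25797 reads in KO and 26353 in WT (0.22). The Psap value depends on the deposited annotation: a KO region of 6222 reads counts as 3′ UTR, while an overlapping WT group of 11233 reads is annotated as coding and is left out. Counting that group, Psap was at -0.29, and groups listed in both libraries alone gave -0.26. Such groups, converted and overlapping a 3′ UTR group of the same gene in the other library, numbered 3 in KO with 132 reads and 7 in WT with 11553. Itsn2, an endocytic scaffold, was at -0.73 with 8812 reads in KO and 17392 in WT, and Scd2, a fatty acid desaturase, at -0.75 with 5879 and 11713. In Spred1, Ell2, Itsn2 and Rbm47 the largest region held 97.4% to 99.1% of the reads.

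**Figure D3:**
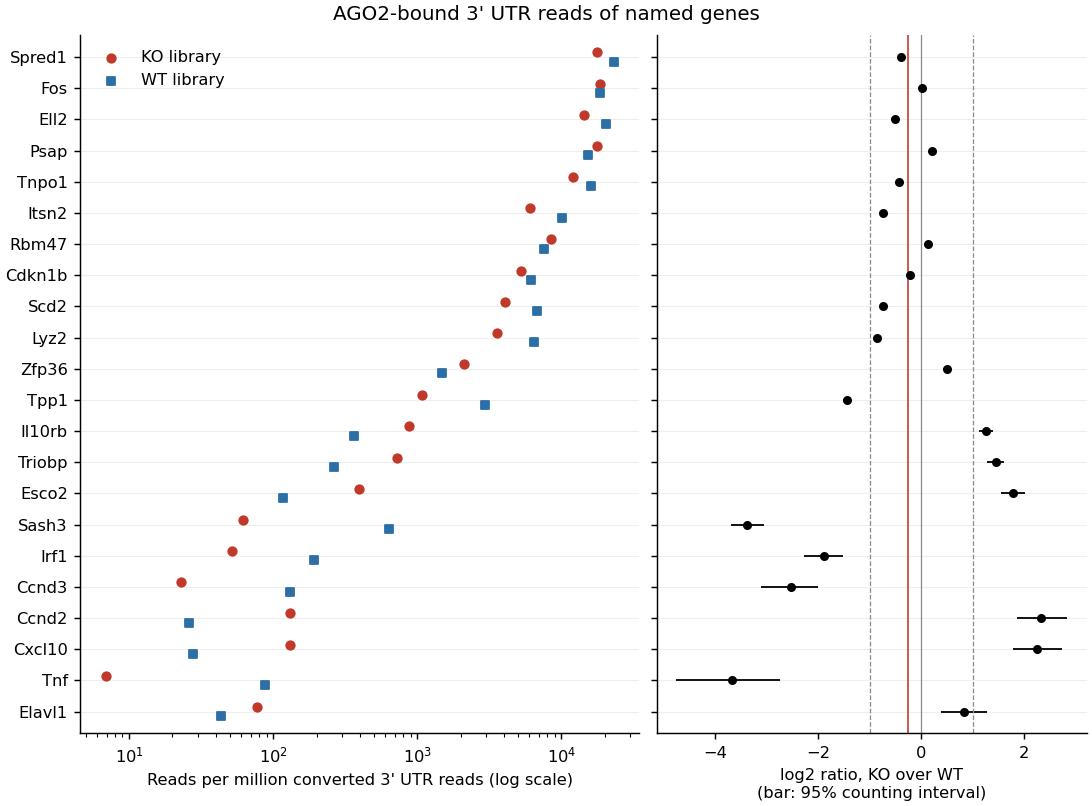
The left panel gives reads scaled to a total of 1000000 converted 3′ UTR reads (log scale) in the KO library (red circles) and the WT library (blue squares). The right panel gives the log2 ratio KO over WT with its 95% counting interval, dashed lines at 2-fold and a red line at the median gene. Genes with most reads sit within 2-fold, and the widest intervals belong to genes of low read number such as Tnf.

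Several well-covered genes stood apart from the median gene. Tpp1, a lysosomal peptidase, had 1569 reads in KO and 5045 in WT (-1.44, interval -1.52 to -1.36), of which 1392 and 4638 lay in the same region. Sash3, an adapter protein of lymphocyte signalling, had 89 reads in KO and 1090 in WT (-3.37). In Sash3 most of the difference came from 1 region with 22 reads in KO and 926 in WT. Of the other regions 1 had 53 reads in KO and 56 in WT, 1 had 14 and 60, and 1 had none listed in KO and 48 in WT. Without its largest group Sash3 was at -1.04. On the higher side, Il10rb, a subunit of the IL-10 receptor, had 1265 reads in KO and 627 in WT (1.26), and Triobp, an actin-binding protein, had 1044 and 456 (1.44). Esco2, an acetyltransferase of cohesin, had 576 reads in KO and 200 in WT (1.77, interval 1.54 to 2.01), of which 566 and 200 lay in the same region. These genes had between 0.91 and 0.98 conversion events per read in both libraries, apart from Sash3, whose 89 KO reads had as many events.

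The genes with the highest and lowest ratios among those with at least 20 reads in each library were mostly of low read number. The 12 highest ran from a log2 ratio of 2.64 for Polr3g, a subunit of RNA polymerase III, to 2.19 for Pja1, a ubiquitin ligase. Ccnd2, a D-type cyclin, had 190 reads in KO and 45 in WT (2.32), and Cxcl10, an interferon-induced chemokine, had 191 and 48 (2.24). Usp22, a deubiquitinase, had 109 reads in KO and 21 in WT (2.62), and Tfpi, an inhibitor of blood coagulation, had 86 and 21 (2.28). The others were Ddhd2, Lemd3, 5330426P16Rik, Zbtb44, Brms1l and Dctn4. Brms1l, a gene of the Sin3 repressor complex, was the deepest of the 12, with 1160 reads in KO and 288 in WT (2.26), but 1123 and 196 of them lay in a region with only 40 and 11 conversion events. Without groups whose conversion events are under 25% of their reads, Brms1l had a log2 ratio of -0.81, and without its largest group -1.07.

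Sash3 was the lowest of the 12 lowest, followed by Lpgat1, an acyltransferase, with 21 reads in KO and 201 in WT (-3.01) and by Cpox, an enzyme of haem synthesis, with 20 and 187 (-2.98). Cpsf7, a pre-mRNA cleavage factor, had 20 reads in KO and 164 in WT (-2.79). Atg14, a factor of autophagy initiation, had 32 reads in KO and 250 in WT (-2.72). Ccnd3, another D-type cyclin, had 33 reads in KO and 225 in WT (-2.52), so Ccnd2 and Ccnd3 lay at opposite ends of the list while Ccnd1 was at -0.46 (786 reads in KO and 1285 in WT). The others were Tbc1d12, Sacm1l, 4933407C03Rik, Dnajc13, Trak1 and Rdh10. Of the 12 highest, 4 (Polr3g, Tfpi, Zbtb44 and Dctn4) had no region listed in both libraries, and of the 12 lowest 3 (Lpgat1, 4933407C03Rik and Trak1). Of genes more than 2-fold lower, 80 of 489 (16.4%) had no region listed in both libraries, as had 27 of 189 higher genes (14.3%) and 47 of 2053 genes within 2-fold (2.29%). These higher and lower genes also had fewer reads, with medians of 153 and 200 against 382 within 2-fold, and the part of depth in this was not tested.

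There were 28 genes with no converted 3′ UTR group listed in KO and 7 with none in WT. Some of these had reads without conversion: unconverted groups were listed for 9 of the 28 in KO and for 3 of the 7 in WT. Smyd3, a lysine methyltransferase, had 847 WT reads with a conversion rate of 0.00236 events per read and 2437 KO reads with no event, so all 3′ UTR groups gave it a log2 ratio of 1.75 in the opposite direction. Rnft2 had 178 reads in KO with 0.00562 events per read, and 78 unconverted reads in WT. Oprd1, an opioid receptor gene, had 112 reads in KO with 0.00893 events per read, and its mRNA was at most 0.0860 CPM in any library. Others carried normal conversion. Phlda1 had 206 WT reads with 0.825 events per read and 20 unconverted reads in KO. Pgm1, a phosphoglucomutase, had 203 WT reads with 0.862 events per read and none listed in KO. Sub1, a transcriptional coactivator, had 128 KO reads with 0.867 events per read, and in WT an overlapping converted group of 71 reads that is annotated as coding. Gclc, an enzyme of glutathione synthesis, had 122 converted reads in KO and 36 unconverted reads in WT.

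Genes of the mRNA decay machinery and the AU-rich element binding proteins were mostly within 2-fold. Of 16 compared genes for AU-rich element binding and decay factors, 1 was higher (6.25%, against 6.92% of all genes) and 0 were lower (against 17.9%), with a median log2 ratio of 0.11 against -0.26 over all genes. Zfp36, which encodes the decay factor tristetraprolin, had 3064 reads in KO and 2561 in WT (0.51, interval 0.43 to 0.58), and its largest region carried the miR-27b match shown above. Hnrnpd, which encodes AUF1, was the higher gene at 1.08, with 91 reads in KO and 51 in WT. Zfp36l1, a relative of tristetraprolin, was at -0.18 with 279 and 376 reads. Elavl1 itself had 112 reads in KO and 75 in WT (0.83, interval 0.39 to 1.27), although groups listed in both libraries alone gave -0.16. In the silencing pathway, 15 genes gave 0 higher and 1 lower (6.67%), with a median of -0.14. Ago2 (listed as Eif2c2) was at -0.24 with 343 reads in KO and 481 in WT, Dicer1, the miRNA processing enzyme, at 0.06, and the TNRC6 genes between -0.34 and 0.20. The lower gene was Pan3, a deadenylase subunit, with 36 reads in KO and 171 in WT (interval -2.56 to -1.48), or 89 and 171 when unconverted groups were counted.

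Reported ELAVL1 target mRNAs did not stand apart as a list. Of 23 compared genes 1 was higher (4.35%) and 4 were lower (17.4%), near the shares of all genes, and their median of -0.26 equalled that of all genes. Tnf, the cytokine, had 10 reads in KO and 150 in WT (-3.66, interval -4.75 to -2.74), in regions that were each listed in a single library. Its largest region held 123 reads in WT and none listed in KO. Sirt1, a deacetylase, had 79 reads in KO and 246 in WT (-1.39), and Tlr4, the receptor for lipopolysaccharide, had 151 and 400 (-1.16), although groups listed in both libraries alone gave Tlr4 0.17. Atf3 had 17 and 89 (-2.14). The higher gene was Casp2 at 1.04. Myc was at -0.56, Vegfa at -0.72 and Hif1a at 0.28.

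Cytokine and inflammatory mRNAs had the lowest median of the lists with at least 9 genes, at -0.72 over 9 genes. Of these 1 was higher (11.1%, against 6.92% of all genes) and 2 were lower (22.2%, against 17.9%). Besides Tnf, the lower gene was Ccl3, a chemokine, with 28 reads in KO and 148 in WT (-2.16), and Ccl4, its close relative, had 45 and 96 (-0.85). Tnfaip3, a brake on NF-kB, had 104 reads in KO and 228 in WT (-0.89). Cxcl10 was the exception described above. Among 12 Toll-like receptor and NF-kB genes 1 was higher (8.33%), Tlr13 at 1.06, and the list median was -0.33. The 2 lower genes (16.7%) were Tlr4 and Nfkbie, an inhibitor of NF-kB, at -1.43. Among the pathway lists, interferon response genes had the highest median, 0.22 over 13 genes, with 1 higher (7.69%) and 2 lower (15.4%). Rsad2, an antiviral enzyme, had 822 reads in KO and 585 in WT (0.74), Oas2 had 1929 and 1580 (0.53) and Ifi44 had 80 and 43 (1.14). Irf1, a transcription factor of the same response, went the other way with 75 reads in KO and 330 in WT (-1.89), and so did Ifnar1, a receptor subunit, at -1.13.

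Of 18 MAPK feedback and immediate early genes 0 were higher and 3 were lower, with a median of -0.30. The lower genes were 16.7% of the list, near the 17.9% of all genes. They were Jun with 23 reads in KO and 103 in WT (-1.92), Fosl2 with 74 and 244 (-1.47) and Atf3. Counting unconverted groups as well, they stood at -1.04, -0.93 and -0.55. Dusp1, a MAPK phosphatase, was at -0.25. Of 20 macrophage lineage and identity genes 1 was higher (5.0%) and 4 were lower (20.0%), with a median of -0.21. Csf1r, the receptor for CSF1, had 811 reads in KO and 813 in WT (0.24). Mrc1, the mannose receptor, had 99 reads in KO and 268 in WT (-1.19), and Cx3cr1, a chemokine receptor, had 25 and 101 (-1.77). Ptprc, which encodes CD45, was at -1.28, or 0.01 in groups listed in both libraries alone, and Cebpa, a myeloid transcription factor, was at -1.32. Cd68, a lysosomal glycoprotein of macrophages, was the higher gene at 1.39 with 73 reads in KO and 33 in WT.

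Genes on the lysosome list included 3 higher (13.0%, against 6.92% of all genes) and 0 lower (against 17.9%) of 23, with a median of -0.15. The list does not hold Tpp1, the lysosomal peptidase given above, which was more than 2-fold lower in KO and has more reads than the 3 higher genes. The higher genes were Cd68, Lamp1, a lysosomal membrane protein, with 171 reads in KO and 74 in WT (1.46), and Npc1, the lysosomal cholesterol exporter, with 100 and 19 (2.64). Cholesterol and lipid genes included 0 higher and 3 lower of 14, with a median of -0.44. The lower share of 21.4% was near that of all genes. The lower genes were Abcg1, a cholesterol exporter of the plasma membrane, with 58 reads in KO and 246 in WT (-1.84), Lrp1, an endocytic receptor, with 27 and 128, and Stard4, a sterol carrier, with 14 and 187 (-3.49). Stard4 had 135 reads in KO and 223 in WT when unconverted groups were counted. Of 20 cell cycle genes 2 were higher and 2 lower, with a median of -0.29.

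Reported targets of single miRNAs were near the median of all genes for most families. Of all genes 6.92% were higher and 17.9% lower. The median was -0.18 for 15 let-7 targets, with 3 higher (20.0%) and 1 lower (6.67%). For 12 miR-21 targets it was -0.12, with 1 higher (8.33%) and 0 lower. They were -0.19 for 12 miR-155 targets (0 higher, 2 lower), -0.32 for 11 miR-29 targets (0 higher, 2 lower) and -0.55 for 10 miR-27 targets (1 higher, 1 lower). Among let-7 targets Arid3b was at 1.83 with 144 reads in KO and 48 in WT, and Igf2bp2 was at -2.83 with 12 and 101. Pdcd4, a reported miR-21 target, had 65 reads in KO and 64 in WT (0.27). Cbl, a ubiquitin ligase among the miR-155 targets, had 15 reads in KO and 157 in WT (-3.14). Nfe2l2, the antioxidant transcription factor listed as a miR-27 target, had 5332 reads in KO and 9941 in WT (-0.65).

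**Figure D4:**
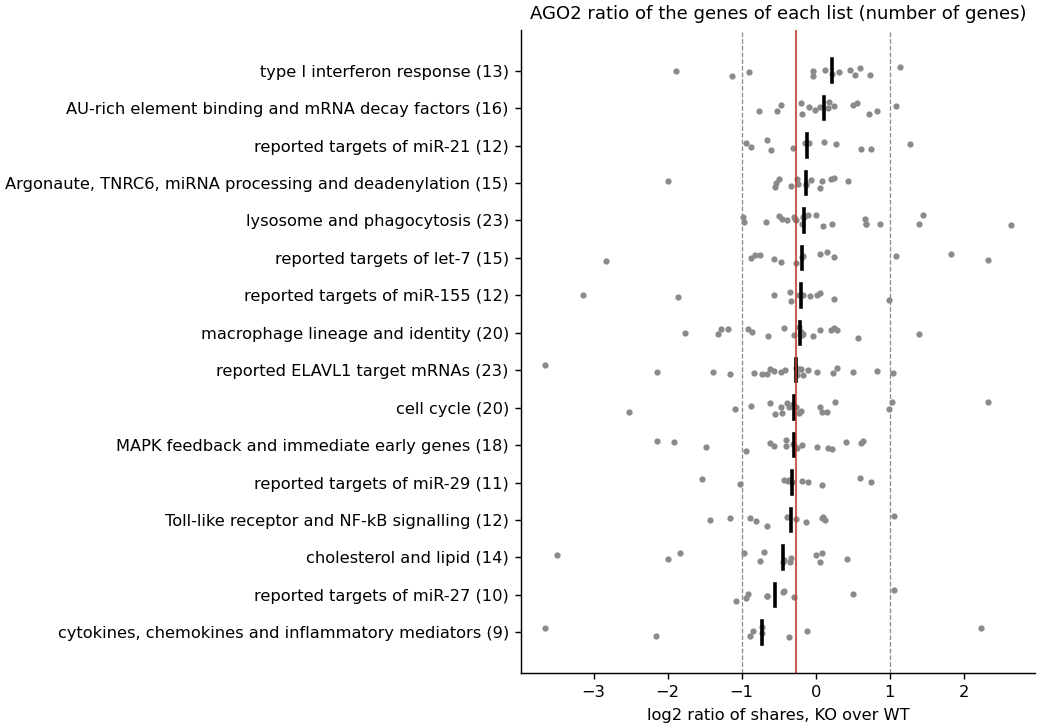
Each grey point is a gene of the named list with converted groups in both libraries, at its log2 ratio of shares, KO over WT (x axis). Black bars are list medians, the red line is the median of all genes at -0.26, and dashed lines mark 2-fold. Most bars lie near the red line, with interferon response genes at the top and cytokine genes at the bottom.

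Genes with and without a seed match had similar median ratios. Regions were searched on the transcript strand for the 7mers that pair with the seeds of 12 abundant miRNA families (bases 2 to 8, or 2 to 7 followed by an A), and a region could match several families. The 1727 genes with any match had a median of -0.25, with 98 higher and 264 lower. The 1004 genes without had -0.29, with 91 higher and 225 lower, a larger part of them in both directions. Of all genes 6.92% were higher and 17.9% lower. The part of read number in this was not tested. Matches to miR-27b (ACTGTGA or CTGTGAA) were in 3.02% of regions and 514 genes, whose median was -0.27, and these regions held 19.0% of reads in KO and 20.9% in WT. Those to miR-29a (TGGTGCT or GGTGCTA) were in 1.87% of regions and held 7.32% of reads in KO and 6.40% in WT. Those to miR-23a held 5.87% and 6.03%. The AU-rich core ATTTA was in 7.72% of regions, which held 10.2% of reads in KO and 11.3% in WT, and its 1046 genes had a median of -0.27. The run TTTTTTT was in 2.17% of regions, with 2.90% of reads in KO and 2.83% in WT. Shares here are of the reads of the compared genes, without groups that hold a mature miRNA.

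AGO2 ratios in coding sequence did not follow those in the 3′ UTR of the same gene. Over 604 genes with 100 or more converted coding reads, listed in both libraries, the Pearson correlation was -0.003 and Spearman's rho -0.017. The points share both libraries and their depth, and genes are not independent replicates.

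The mRNA libraries held 8160789 to 25030262 counts. Elavl1 mRNA was not lower in the libraries labelled KO, at 69.5 ± 6.13 CPM in KO and 63.5 ± 2.00 CPM in WT (SD, n = 4 each). Its log2 fold change was 0.13 (SE 0.13). The counts are given per gene and not per exon, so loss of the floxed part is not tested by them. By edgeR's quasi-likelihood test 0 of 14019 genes (0%) passed a Benjamini-Hochberg adjusted p of 0.05, with 81 (0.578%) at an unadjusted p under 0.05. DESeq2 called 3. With the replicate number as a block edgeR called 5 (0.0357%), with 1321 genes (9.42%) at an unadjusted p under 0.05. The fit on genotype alone leaves differences between replicate numbers in its error. A high adjusted p from it therefore does not show that an mRNA is unchanged. Of the 2671 compared AGO2 genes that were tested 0 passed, 7 had an unadjusted p under 0.05, and 1 passed with the block.

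That gene was Lyz2, the gene that carries the Cre insertion. Lyz2 mRNA had 3723, 5091, 5314 and 6142 CPM in KO 1 to 4, and 9949, 10713, 15451 and 13598 CPM in WT 1 to 4. Every KO library lay below every WT library. The log2 fold change was -1.29 (SE 0.23), with an edgeR adjusted p of 0.9999 without the block and 0.000472 with it. AGO2 reads on the Lyz2 3′ UTR were 5181 in KO and 11171 in WT, a log2 ratio of -0.86 (interval -0.91 to -0.81), and each of its 4 largest regions had a lower share in KO. The LysM-Cre insertion and a loss of ELAVL1 cannot be told apart in Lyz2. Slc7a11, a cystine transporter, was the other compared gene with an mRNA change past 2-fold, at -1.34 (SE 0.62, edgeR adjusted p = 0.9999), and its AGO2 ratio was -0.42 with 151 reads in KO and 239 in WT.

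Across genes, the AGO2 ratio and the mRNA change were only weakly related. Over 2639 genes with converted reads in both libraries Spearman's rho was 0.06 and Pearson's r 0.06. Over numbers 1 and 2 alone rho was 0.0156, and over numbers 3 and 4 alone 0.0773. It was 0.10 over the 894 genes with 500 or more reads and 0.15 over the 235 with 2000 or more. The points share the same libraries and genes are not independent replicates, so this is a description. The AGO2 ratios had an SD of 0.91 and the mRNA log2 fold changes one of 0.16. The 181 tested genes with a higher AGO2 ratio had a median mRNA log2 fold change of 0.01, with 54.1% above 0. Those within 2-fold had -0.01 with 47.8% above 0, and the 476 lower genes had -0.02 with 43.1% above 0.

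**Figure D5:**
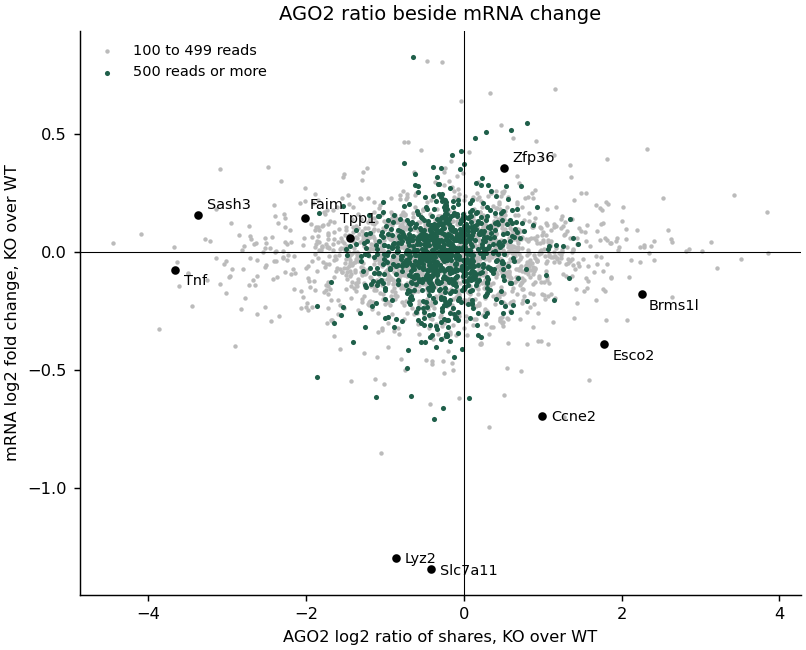
Each point is a gene with converted 3′ UTR groups in both PAR-CLIP libraries and a tested mRNA. The x axis is the AGO2 log2 ratio of shares and the y axis the mRNA log2 fold change, both KO over WT, with green points for genes of 500 or more reads. The cloud is wide along the AGO2 axis and narrow along the mRNA axis, and Lyz2 and Slc7a11 lie lowest.

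Among genes with 500 or more AGO2 reads, the differences between AGO2 and mRNA were led by those with the most extreme AGO2 ratios. Sash3 mRNA had a log2 fold change of 0.16 (SE 0.14) beside its AGO2 ratio of -3.37. Faim, an inhibitor of apoptosis, had 116 AGO2 reads in KO and 558 in WT (-2.02) and an mRNA change of 0.14 (SE 0.14). Esco2 mRNA was at -0.39 (SE 0.39) beside an AGO2 ratio of 1.77, Brms1l mRNA at -0.18 (SE 0.16) beside 2.26, and Ccne2, a cyclin, was at -0.69 (SE 0.60) beside 0.99. Each of these mRNA changes had an edgeR adjusted p of 0.9999. Zfp36 was higher in KO on both measures, with an mRNA change of 0.36 (SE 0.21, edgeR adjusted p = 0.9999) that did not pass the test, nor did it with the replicate block (0.35, edgeR adjusted p = 0.202). Zfp36 mRNA had 154, 161, 207 and 253 CPM in KO 1 to 4 and 133, 139, 138 and 194 CPM in WT 1 to 4. The groups overlap through WT 4, while KO was the higher library in 4 of 4 same-number pairs. The labels do not state that libraries are paired by number. Irf1 mRNA was at 0.24 (SE 0.23) beside its AGO2 ratio of -1.89.

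Tnf mRNA, in contrast to its AGO2 reads, overlapped between the genotypes, with 99.6, 58.5, 52.8 and 60.4 CPM in KO 1 to 4 and 95.2, 51.1, 71.2 and 68.2 CPM in WT 1 to 4. Its log2 fold change was -0.08 (SE 0.26), and 0.09 without WT 1 and 0.02 without KO 3. Cxcl10 mRNA had 20.5, 4.37, 9.03 and 9.71 CPM in KO 1 to 4 and 23.2, 5.42, 7.25 and 6.68 CPM in WT 1 to 4, so number 1 was highest in both genotypes. Its log2 fold change was 0.02 (SE 0.57). Leaving out WT 2, WT 3, WT 4 or KO 1 in turn gave -0.19, -0.13, -0.15 and -0.47. The PAR-CLIP libraries carry no number that ties them to an mRNA library, and whether they came from the same cultures is not given in the sources used here.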

How the data were processed

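Per the labels' protocols, macrophage PAR-CLIP libraries were made with an antibody to mouse Ago2, and the submitters' processing notes list CASAVA 1.8.2, Bowtie 0.12.7 and build mm9 without roles. How groups were built and genes counted is not given in the sources used here. The authors deposited, per the file headers, read counts and conversion event counts per group, and raw read counts per gene and per miRNA; the normalized values beside them were not used. The members and gene lists were chosen with earlier results of these data known.

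Converted 3′ UTR reads were summed per gene, scaled to their total in each library, and compared for genes with 100 or more reads. PAR-CLIP has 1 library per genotype and got no test. Groups of a gene that overlap on the same strand form a region. Of the 2731 gene names, 2482 matched the mRNA table by symbol and 195 by synonym. Exact intervals cover counting error only. Named genes are those with most reads, with the 12 highest and 12 lowest ratios (20 or more reads in each library), list members past 2-fold, genes listed in 1 library, a fixed set, and those whose AGO2 and mRNA values differ most.

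mRNA counts were tested with edgeR 4.0.16 (TMM, filterByExpr, genotype alone, R 4.3.3), and DESeq2 1.42.0 was an alternative. Libraries with the same number deviated together (correlations 0.832, 0.859, 0.774 and 0.832 for numbers 1 to 4). Unlike numbers did so too, at 0.862 for KO 3 with WT 4 and 0.808 for KO 4 with WT 3. For KO 1 with WT 2 it was 0.359, and for KO 2 with WT 1 0.242. The values thus do not single out same-number pairs among numbers 3 and 4. The replicate block is given where it changes a call. The scripts were tested on simulated data. Tables were handled with Python 3.11.15, pandas 2.3.3, numpy 2.4.6 and scipy 1.17.1.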

Additional observations from a re-analysis of the deposited data

Results flagged for a closer look

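Among the genes whose mRNA values are given, 3 had a library far from the others of its genotype. Chance gives about 1 in 20 groups such a library, and the number of groups examined is not given here. Tnf mRNA was 99.6 CPM in KO 1 against 52.8 to 60.4 CPM in the other KO libraries. Zfp36 mRNA was 194 CPM in WT 4 against 133 to 139 CPM in the other WT libraries. Cxcl10 mRNA was 23.2 CPM in WT 1 against 5.42 to 7.25 CPM in the other WT libraries. For each gene the library of the same number was also the highest of the other genotype. These were 95.2 CPM in WT 1 for Tnf, 253 CPM in KO 4 for Zfp36 and 20.5 CPM in KO 1 for Cxcl10. The cause was not tested.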

How the results depend on the processing

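Counts of genes past 2-fold in AGO2 share followed the scale, the minimum and the groups counted. Against 189 higher and 489 lower genes in KO, scaling to all reads in groups gave 122 and 744, centring on the median gene 285 higher, and summing conversion events in place of reads 307 higher. Leaving out each gene's largest group gave 117 and 278 of 1523 genes, and groups listed in both libraries alone, chosen after seeing the data, gave 121 and 282 of 2096. A minimum of 50 reads gave 433 and 857 of 3763, 200 gave 57 and 245 of 1840, 500 gave 13 and 71 of 912, and no minimum 1314 and 2186 of 6409. A fold of 1.5 gave 380 and 887, and of 4 gave 41 and 126. The other alternatives stayed within 1.5 times of both counts. Of the named genes' ratios under all alternatives, 710 stayed close to the first value, 246 moved by more than counting error, and 38, of 16 genes, changed sign. Of genes past 2-fold 5 values of 4 genes did so. These were Vmp1, at -8.21 without groups whose conversion events are under 25% of reads, Brms1l, at -0.81 in that setting and -1.07 without its largest group, and Tlr4 and Ptprc, at 0.17 and 0.013 in groups listed in both libraries. The other 33 were of genes within 2-fold, among them Elavl1 and Psap as given in the report, Itsn2, at 0.41 without its largest group, and Csf1r, at -0.35 there. Fos, Rbm47, Pdcd4, Psap and Csf1r fell below 0 on the scale of all reads in groups. The 25% setting the one without mature miRNAs and the one that counts overlapping groups annotated otherwise were also chosen after seeing the data. The causes were not tested.

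With the replicate number as a block, edgeR called 5 mRNA genes in place of 0, with the number set (1 and 2 against 3 and 4) as a block 1, and DESeq2 called 3. Numbers 3 and 4 alone gave 14 and numbers 1 and 2 alone 0, and leaving out each library in turn gave 0 to 0. Lyz2 passed with the block, in DESeq2 and in numbers 3 and 4 alone, and Slc7a11 in the last alone. Spearman's rho between AGO2 ratio and mRNA change was 0.0616 with the replicate block, 0.0156 for numbers 1 and 2, 0.0773 for numbers 3 and 4, and 0.063, 0.0714 and 0.101 at minimums of 50, 200 and 500 reads, against 0.0621. Tnf mRNA ran from -0.324 to 0.092 and Cxcl10 mRNA from -0.47 to 0.74 without single libraries, and they stood at 0.10 and -0.25 in numbers 1 and 2 alone. No mRNA change named in the report, other than those of Lyz2 and Slc7a11, passed the threshold in any alternative. Depth limits the AGO2 ratios of genes near 100 reads, and having 1 library per genotype limits all of them.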
